A study of Mus musculus with 4 samples.

Results

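Interleukin-10 family cytokines were followed here through the genes of 1 cluster on mouse chromosome 1, namely Il10, Il19, Il20 and Il24, together with Mapkapk2, the kinase gene that lies next to Il10. The 5 genes were taken by name and read from 7 probes, out of 18749 genes and 41173 probes on the array. They were chosen by their place in the cluster and with their log2 differences on these same 4 arrays already known, so the values are given as a description and no test was run on them. Of the 5 genes, 4 were detected on at least 1 array and 3 on all 4.

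The study asked how loss of the transcription repressor Bach2 alters gene expression of T helper (Th) cells, before and after they meet their antigen receptor signal again. Naive CD4 T cells were taken from the spleen of C57BL/6J mice, labelled as female. The wild type (WT) mice are labelled Bach2 WT, and the study's controls carried CD4-Cre without floxed Bach2. The Bach2 KO mice are Bach2flox/flox × CD4-Cre TG, in which the Cd4 promoter drives Cre and so removes the gene in T cells, CD8 T cells included. All cells were stimulated for 2 days with anti-TCR-β (3 μg per ml) and anti-CD28 (1 μg per ml), then grown for 3 days with interleukin-2 (IL-2, 2.5 ng per ml). RNA was taken at that point ("before"), or after a further 4 h on anti-TCR-β with no added IL-2 ("after").

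Each of the 4 conditions was measured once, on a one-colour Agilent array, so no difference has a replicate check. Values are the scanner software's processed signal, in arbitrary units. A log2 difference compares 2 arrays after each was divided by its own 75th percentile, and a gene counted as changed when it differed at least 2-fold. A probe was detected where the software flagged it as well above the array's background. The lowest signals that met this were 15.1 for WT before, 16.8 for Bach2 KO before, 14.5 for WT after and 17.2 for Bach2 KO after, and 53.6 to 54.0% of probes passed on each array. The errors given with single differences come from the software's error of each signal, and the median SD between probes of 1 gene was 0.088 to 0.15 on the log2 scale over 3852 genes. Neither covers differences between mice, cultures or hybridizations.

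All 9 T cell identity markers were detected on every array and stayed within 2-fold between the genotypes. Signals of other kinds moved with the genotype. Of 4 Y-linked genes, 3 were detected on both Bach2 KO arrays and 0 on the WT arrays, with summed signals of 1696 and 1458 against 17.5 and 18.2, and Xist, the RNA of X inactivation, was 1.04 and 1.19 lower in log2 in Bach2 KO. Xist still read 4623 and 2585 there, so the Bach2 KO arrays held Y-linked RNA and Xist together. This goes against the label that all mice were female, while the study's methods name mice of both sexes for its culture work, and whether mice were pooled is not given in the sources used here. Sex and genotype cannot be told apart, nor can any genotype difference be given without those arrays. Bach2 itself read 2932 and 3310 in WT and 2633 and 3080 in Bach2 KO. Whether its probe lies in the deleted part is not given in the sources used here, so it does not check the labels. With RNA from whole cultures, more cells that make a transcript and more of it per cell cannot be told apart.

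Interleukin-10 is a cytokine that restrains inflammation, and Th cells of several lineages can secrete it, usually after their receptor is engaged. Its relatives IL-19, IL-20 and IL-24 are encoded beside it and act mainly on epithelial cells through receptors that share the chain Il20rb, while IL-10 itself signals through Il10ra and Il10rb to the transcription factor Stat3. Mapkapk2 encodes MK2, a kinase downstream of p38 that keeps cytokine messages from being degraded.

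Il10 and Il24 were far higher in Bach2 KO cells than in WT cells both before and after re-stimulation, and both were higher after re-stimulation in each genotype. Mapkapk2 passed 2-fold between the genotypes only in the re-stimulated pair, where it was higher in Bach2 KO. Il19 was lower in Bach2 KO before re-stimulation and close to WT afterwards, and Il20 was detected nowhere.

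Il10 was read by 10 spots of 1 probe on each array (transcript NM_010548). In WT cells before re-stimulation its signal was 9.98, and none of the 8 spots used was well above background. In Bach2 KO cells before re-stimulation the signal was 378, in WT cells after it 104, and in Bach2 KO cells after it 6754. The order was thus WT before, WT after, Bach2 KO before and Bach2 KO after. The spots of 1 array lay close together, from 355 to 406 for Bach2 KO before, 90.0 to 113 for WT after and 6349 to 7451 for Bach2 KO after, with coefficients of variation of 5.14, 7.15 and 4.98%. No spot range of 1 array overlapped that of another. Spots share 1 RNA sample, so their spread is that of the slide only.

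Before re-stimulation, Il10 was at least 25.1-fold higher in Bach2 KO (4.65 in log2), a lower bound because the WT signal was not well above background. The gene entered that comparison only through the Bach2 KO array. After re-stimulation it was 57.8-fold higher (log2 difference 5.85, software error 0.21) and held rank 5 of the 12348 genes measured in that pair. Re-stimulation itself came with a signal at least 9.55-fold higher in WT cells and 22.0-fold higher in Bach2 KO cells. Re-stimulated WT cells thus reached a lower Il10 signal than resting Bach2 KO cells. The difference before re-stimulation was the one most open to the treatment of low signals, at 2.32 in log2 with normexp background correction and quantile normalization instead. The re-stimulation difference in WT was then 1.23 in log2, below the bound given above. The offset of 50 in that setting shrinks differences that involve dim signals by construction.

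Il24 (NM_053095) was covered by a pair of probes. The brighter one read 52.1 in WT before, 1953 in Bach2 KO before, 281 in WT after and 14365 in Bach2 KO after. Its neighbour read 24.6, 1282, 174 and 8863 in the same order. All 8 values were well above background, and both probes ranked the 4 arrays as Il10 did. IL-24 belongs to the IL-20 subfamily and is known from Th2 cells as well as from skin and tumour studies.

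On the brighter probe Il24 was 37.6-fold higher in Bach2 KO before re-stimulation (log2 5.23, software error 0.22) and 45.4-fold higher after it (5.50, software error 0.20). The other probe gave 5.71 and 5.49. These placed Il24 at rank 7 before and rank 9 after among all genes. The genotype difference hardly moved with re-stimulation: after minus before was 0.27 on the brighter probe (software error 0.30) and -0.22 on the other (software error 0.36). In log2, re-stimulation raised the signal by 2.91 in WT and 3.18 in Bach2 KO, or by 3.31 and 3.09 on the other probe. With normexp background correction the genotype difference did move with re-stimulation, from 4.05 before to 5.20 after, and the re-stimulation difference was 1.89 in WT and 3.03 in Bach2 KO.

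**Figure D1:**
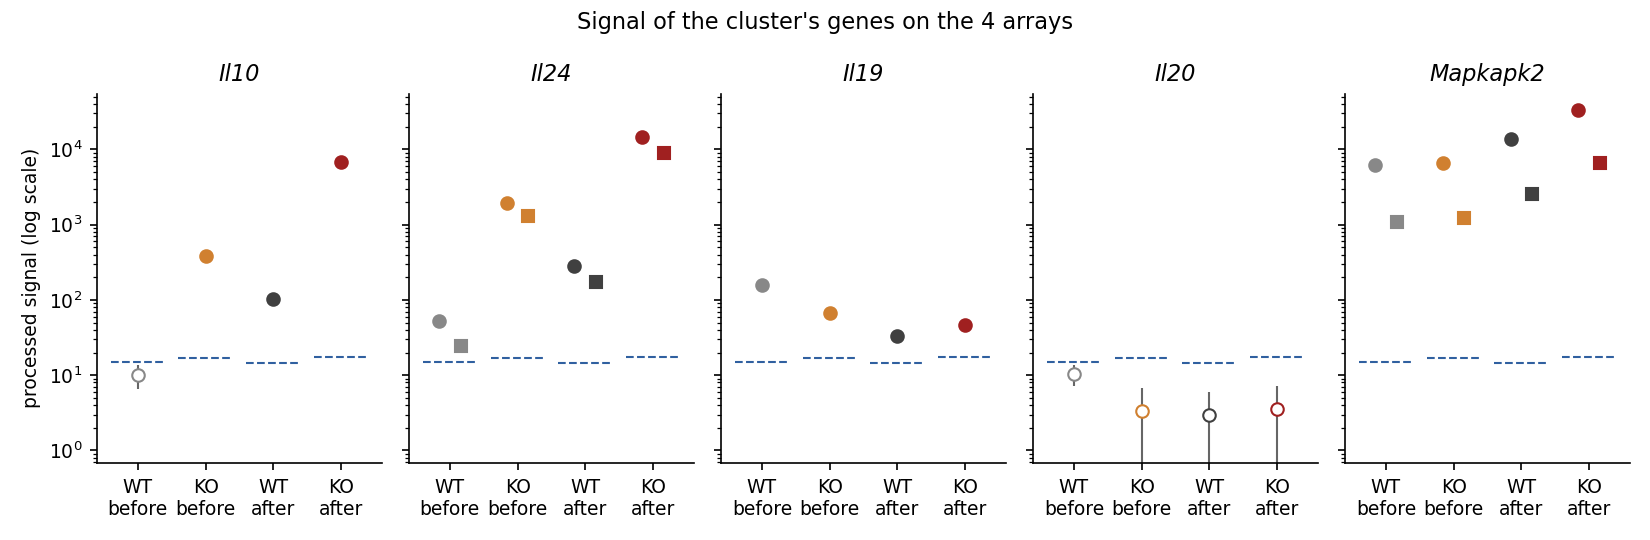
Processed signal (log scale) of each gene on the 4 arrays: WT before, Bach2 KO before, WT after and Bach2 KO after re-stimulation. Filled points were well above background and open points were not; circles are the brighter probe and squares the other probe of a gene; bars are the software's error of the signal, smaller than most points and running off the axis for Il20; dashed lines mark the lowest signal well above background. Il10 ran from 9.98 to 6754 and Il24 from 52.1 to 14365, while Il20 stayed at or below 10.4.

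Il19 (NM_001009940), whose product binds the same receptor pair as IL-20, followed a different order. It read 156 in WT before, 66.4 in Bach2 KO before, 33.4 in WT after and 45.9 in Bach2 KO after, all well above background. The highest signal was that of resting WT cells, where Il10 and Il24 were lowest. Before re-stimulation Il19 was 2.34-fold lower in Bach2 KO (log2 -1.23, software error 0.22), at rank 228 from the lowest of 12136 genes. After re-stimulation it was 1.22-fold higher (0.28, software error 0.27), a difference about as large as its own error. WT cells lost signal on re-stimulation, by 3.34-fold, and Bach2 KO cells showed -0.23 in log2. With normexp, whose offset of 50 shrinks differences of dim signals, the drops of -1.23 and -1.74 in log2 became -0.73 and -0.98, both under 2-fold.

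Il20 (NM_021380) read 10.4 in WT before, 3.39 in Bach2 KO before, 3.00 in WT after and 3.59 in Bach2 KO after. None of these was well above background, so no difference was taken for it.

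Mapkapk2 (NM_008551) was bright on all arrays. Its brighter probe read 6087 in WT before, 6606 in Bach2 KO before, 13645 in WT after and 32899 in Bach2 KO after. Its other probe read 1089, 1210, 2546 and 6489. The resting cells of both genotypes were near each other and the re-stimulated cells stood above them, Bach2 KO highest.

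The genotype difference of Mapkapk2 was 0.12 in log2 before re-stimulation and 1.10 after it (2.14-fold, software error 0.20), and the other probe gave 0.16 and 1.18. After minus before was 0.97 and 1.02 on the probes (software error 0.29 each). Re-stimulation came with a signal 3.13-fold higher in WT and 6.13-fold higher in Bach2 KO. It was rank 553 of 12348 in the genotype difference after re-stimulation, far below Il10 and Il24, and rank 3981 of 12136 before.

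Counted together, 2 of the 4 members measured before re-stimulation were at least 2-fold higher in Bach2 KO, where 5.26% of all genes were, and 1 was at least 2-fold lower, where 2.82% of all genes were. After re-stimulation 3 of 4 were higher, against 5.17% of all genes, and 0 were lower, against 3.85%. With re-stimulation of WT cells 3 of 4 were higher and 1 was lower, beside 13.2 and 13.5% of all genes. In Bach2 KO cells 3 of 4 were higher and 0 lower, beside 12.4 and 13% of all genes. Because the genes were named with these differences known, nothing is read from the counts. The genotype comparisons and the re-stimulation comparisons use the same 4 arrays, so their values are not independent of each other.

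**Figure D2:**
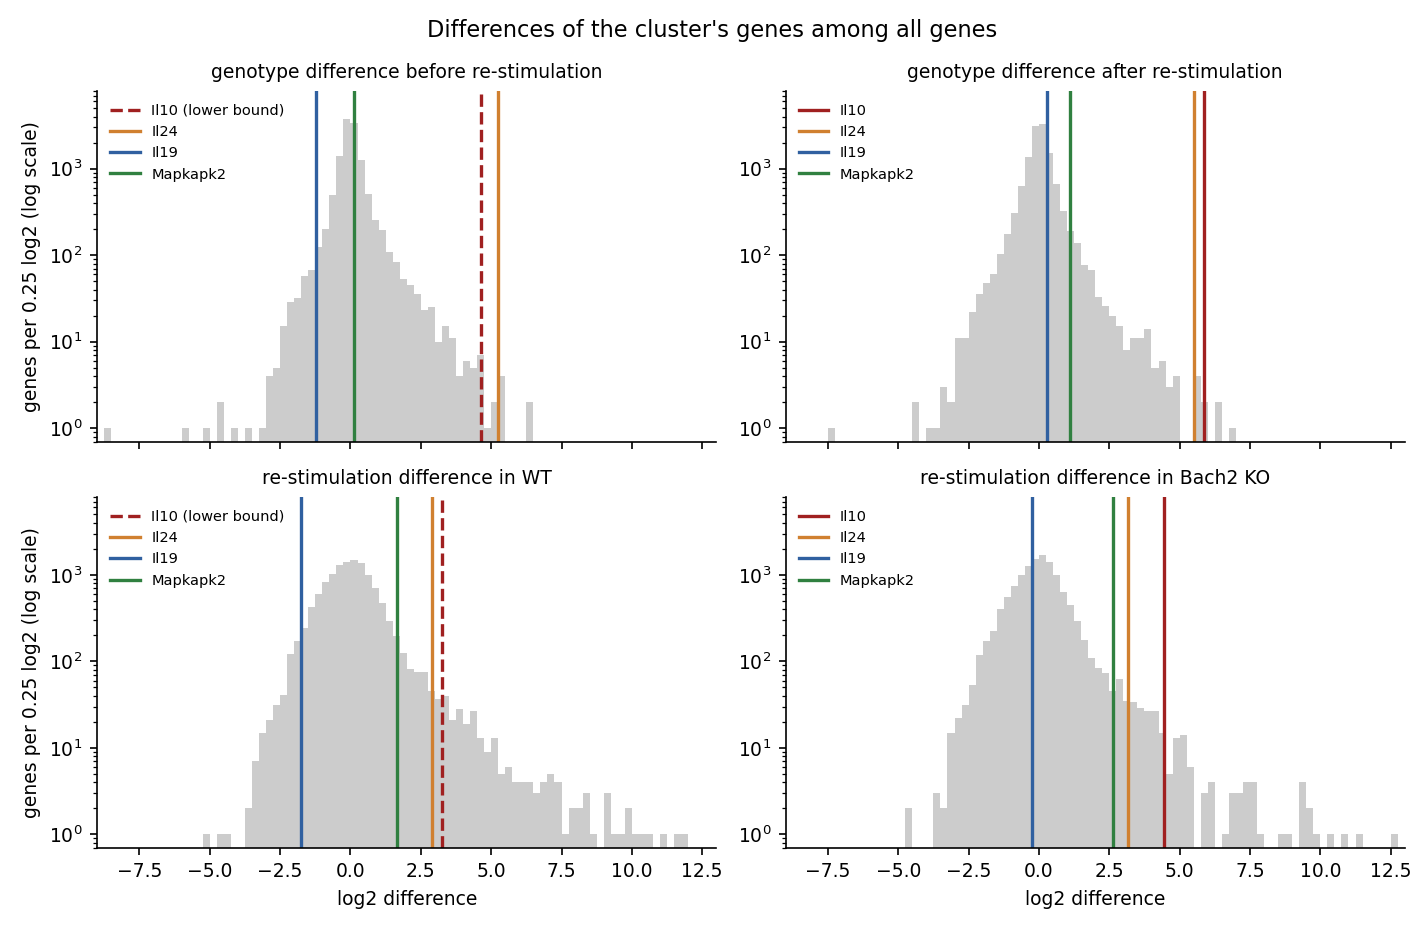
Log2 difference of Il10, Il24, Il19 and Mapkapk2 (vertical lines, brighter probe; dashed for a lower bound) over the histogram of all genes measured in each comparison (grey, number of genes per bin on a log scale). Il24 and Il10 stood at 5.23 and at least 4.65 before and at 5.50 and 5.85 after re-stimulation, at the right edge of the genotype histograms, while the re-stimulation histograms were wider with Il10 at rank 79 in Bach2 KO.

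The order of genes along chromosome 1, as RefSeq gives it for the GRCm38.p6 assembly, is Fcamr, Pigr, Fcmr, Il24, Il20, Il19, Il10, Mapkapk2, Dyrk3, Eif2d, Rassf5, Ikbke and Srgap2. The files name another assembly, mm9, so only the order is used. Among the 8 neighbours outside the cluster, 6 were measured in the genotype pairs and 0 differed 2-fold, either before (median -0.11, from -0.36 to 0.13) or after re-stimulation (median 0.083, from -0.75 to 0.48). Over all genes 8.08% differed 2-fold in one direction or the other before and 9.02% after. The medians over all genes were -0.003 and 0.016. Fcmr, the IgM Fc receptor gene that lies beyond Il24, differed by 0.13 and 0.22, and Dyrk3, a kinase gene beyond Mapkapk2, by -0.29 and 0.33. Within the cluster, Il24 and Il10 passed 2-fold upward in both genotype pairs, and Mapkapk2 only after re-stimulation, by 2.14-fold. Il19, which lies between Il24 and Il10, showed no such rise, and Il20 was not measured. With 6 neighbours and such shares of all genes, no boundary is read from these values.

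Farther along, Eif2d (a translation initiation factor) differed by -0.30 and -0.050 between the genotypes, Rassf5 (a Ras effector) by 0.080 and 0.48, Ikbke (a kinase of interferon and NF-kB signalling) by 0.063 and -0.75, and Srgap2 by -0.36 and -0.34. On re-stimulation Ikbke was 2.21-fold higher in WT, and Srgap2, a regulator of the cytoskeleton, was 3.29-fold lower in WT and 3.24-fold lower in Bach2 KO. The other neighbours measured stayed within 2-fold on re-stimulation. Pigr and Fcamr, receptors for immunoglobulins, stayed near background throughout.

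**Figure D3:**
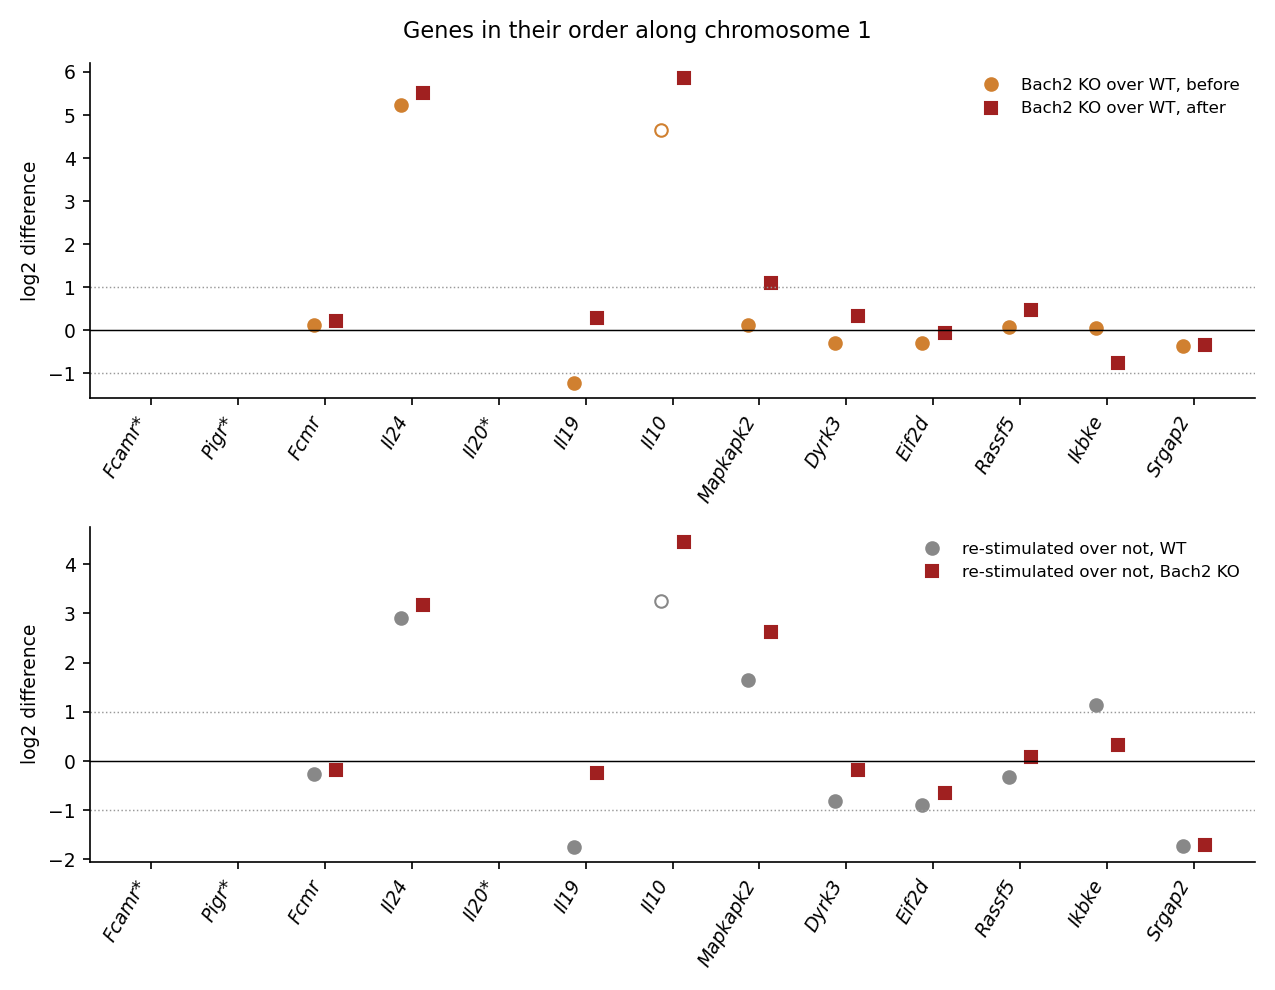
Log2 difference of the cluster and its neighbours in their order along chromosome 1 (equal spacing, not to scale): Bach2 KO over WT in the upper plot, re-stimulated over not in the lower. Open points are lower bounds, dotted lines mark 2-fold, and genes with an asterisk were not measured; Il24 and Il10 rise above their neighbours, which lie between -0.75 and 0.48 in the genotype comparisons.

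RefSeq promoter windows of the GRCm38.p6 assembly were at hand for 3 of the 5 members, Il19, Il20 and Mapkapk2. The 250 bases before the start of each were searched for letters bound by factors of the receptor response, and for GC box and TATA letters. They are shown for Il19, which was lower in resting Bach2 KO cells, and Mapkapk2, which was higher in re-stimulated ones. Both genes are on the minus strand, at chr1:130940116-130940365 and chr1:131097844-131098093, and are printed 5′ to 3′ toward the start, with capitals for the letters GGAAAA or their reverse, a core bound by NFAT factors.
Il19: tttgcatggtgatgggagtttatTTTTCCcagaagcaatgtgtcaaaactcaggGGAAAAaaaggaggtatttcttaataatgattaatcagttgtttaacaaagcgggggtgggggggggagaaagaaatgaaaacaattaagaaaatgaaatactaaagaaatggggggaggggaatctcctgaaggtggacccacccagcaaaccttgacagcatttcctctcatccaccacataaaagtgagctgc
Mapkapk2: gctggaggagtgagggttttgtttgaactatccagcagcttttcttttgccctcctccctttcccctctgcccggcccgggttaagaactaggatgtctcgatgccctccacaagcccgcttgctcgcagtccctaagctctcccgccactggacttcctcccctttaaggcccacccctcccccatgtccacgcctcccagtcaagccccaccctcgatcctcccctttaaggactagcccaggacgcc

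Both strands were searched. Il19 held the NFAT core at 227 and 196 bases before the start, and neither Mapkapk2 nor Il20 held it, where 20.4% of 32851 windows of the same length did. The AP-1 site TGACTCA, bound by Jun and Fos dimers and contained in elements that Maf and Bach factors bind, was in none of the 3 windows and in 4.46% of all. Its looser form TGANTCA, which includes every TGACTCA, was also in none of them and in 6.75% of all. The cAMP response element TGACGTCA (1.55% of all windows), the GC box GGGCGG (32.7%) and the TATA letters TATAAA (12.4%) were likewise absent from all 3. A match here is a description of these bases, and its absence says nothing about sites elsewhere. The Mapkapk2 window was richer in G and C (60.4%) than that of Il19 (42%) or Il20 (52.8%), with a median of 52.4% over all windows.

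Of the other cytokines of the family, Il22, which acts on epithelial barriers, was detected only after re-stimulation. It read 3.01 in WT before and 3.32 in Bach2 KO before, neither well above background, and 17.3 in WT after and 238 in Bach2 KO after. Re-stimulated Bach2 KO cells thus stood 3.61 in log2 above re-stimulated WT cells on the brighter probe, and the other probe, detected in Bach2 KO after only, gave a lower bound of 2.05. The increase with re-stimulation in Bach2 KO was at least 17.4-fold. Ifnl3, a type III interferon related to this family, stayed near background throughout, and Iltifb and Ifnl2 had no probe that could be named.

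Receptor chains of the family were measured from a list of 7 genes. Il10ra, the ligand-binding chain for IL-10, read 3079, 3865, 2364 and 3360 in the order WT before, Bach2 KO before, WT after and Bach2 KO after, a genotype difference of 0.33 in log2 in both pairs. Il10rb, the chain that IL-10 shares with IL-22, read 5651, 5010, 1949 and 1491, or -0.17 and -0.56 in log2 between the genotypes, and was 2.08-fold lower after re-stimulation in WT and 2.73-fold lower in Bach2 KO. Both chains of the IL-10 receptor were therefore detected on every array and stayed within 2-fold between the genotypes.

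Il20rb, the chain shared by the receptors for IL-19, IL-20 and IL-24, read 172, 291, 98.0 and 179 in the same order and was 0.77 and 0.70 higher in log2 in Bach2 KO. Its partner Il20ra was detected only in Bach2 KO after, at 26.9, at least 1.64-fold above WT after. Il22ra1, the alternative partner for IL-24, was not well above background anywhere, at 9.14 to 14.2, nor were Il22ra2 and Ifnlr1. In all, 0 of the 3 chains measured before and 0 of the 4 measured after re-stimulation differed 2-fold between the genotypes, beside 8.08 and 9.02% of all genes, with medians of 0.33 and 0.52. So few chains at such shares say nothing particular about them.

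Of 12 genes of IL-10 signalling and its early response, 0 were at least 2-fold higher in Bach2 KO before re-stimulation and 1 was lower, Etv3 (-1.11), a repressor induced by IL-10 in macrophages. After it 1 was higher, Socs3 (1.34), the feedback inhibitor of Stat3 signalling, and Etv3 was again lower (-1.16). Over all genes 5.26% were higher and 2.82% lower before, and 5.17 and 3.85% after. The other Etv3 probe, detected on all arrays, gave -0.57 and -0.77, under 2-fold in both pairs. The list medians were 0.14 and -0.037, beside -0.003 and 0.016 for all genes. Stat3, the main factor downstream of IL-10, read 3481, 4984, 4384 and 5183 in the order above and differed by 0.52 and 0.068.

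Socs3 read 6139 in WT before, 7893 in Bach2 KO before, 2650 in WT after and 7593 in Bach2 KO after, so that the re-stimulated WT array stood apart as the lowest. Bcl3, an IL-10-induced IkB protein, was 0.87 higher in Bach2 KO before re-stimulation, Socs1, another feedback inhibitor, was 0.46 higher before it, and Sbno2, a corepressor of the IL-10 response, was 0.83 higher after it. Il4ra, which IL-10 and IL-4 raise in macrophages, was -0.70 after. None of these 4 differences reached 2-fold.

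A list of 25 genes known to control Il10 in Th cells was read next. Of these, 24 were measured before re-stimulation, with 8 at least 2-fold higher in Bach2 KO and 0 lower, a median of 0.59 beside -0.003 for all genes. After re-stimulation 7 of 25 were higher and 2 lower, with a median of -0.062 beside 0.016. Over all genes 5.26% were higher and 2.82% lower before, and 5.17% higher and 3.85% lower after. These lists were drawn up with results of these arrays known.

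Maf, the factor that binds the Il10 promoter in many Th lineages, had the largest difference of the list before re-stimulation. It read 57.2 in WT before, 1432 in Bach2 KO before, 123 in WT after and 2391 in Bach2 KO after, the order also seen for Il10 and Il24. That is 25.1-fold higher in Bach2 KO before and 17.2-fold after (log2 4.65 and 4.10). A second, dim probe detected in Bach2 KO only gave lower bounds of 1.64 and 2.40.

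Prdm1, which encodes Blimp-1 and favours Il10 in effector T cells, read 197, 487, 171 and 764 in that order, 1.31 and 1.98 higher in log2 in Bach2 KO. Gata3, the Th2 master factor, read 5812, 16740, 7569 and 15319 and was 1.53 and 0.84 higher. Batf3 was 1.77 and 1.75 higher, and Ahr, the aryl hydrocarbon receptor that partners with Maf at Il10, 1.91 and 1.27 higher. Icos, a costimulatory receptor, was 2.21 and 1.09 higher. These genes were higher in Bach2 KO on both pairs of arrays, with Gata3 within 2-fold in the re-stimulated pair.

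Il21, a cytokine that supports Il10 in T cells, was detected only after re-stimulation, at 23.4 in WT and 469 in Bach2 KO, a log2 difference of 4.15. The pair of genes that was lower after re-stimulation was Stat4 (-1.46), which conveys IL-12 signals, and Fos (-1.39), an AP-1 subunit. They were named after their values were seen. Fos rose on re-stimulation in both genotypes, 21.7-fold in WT and 7.77-fold in Bach2 KO.

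**Figure D4:**
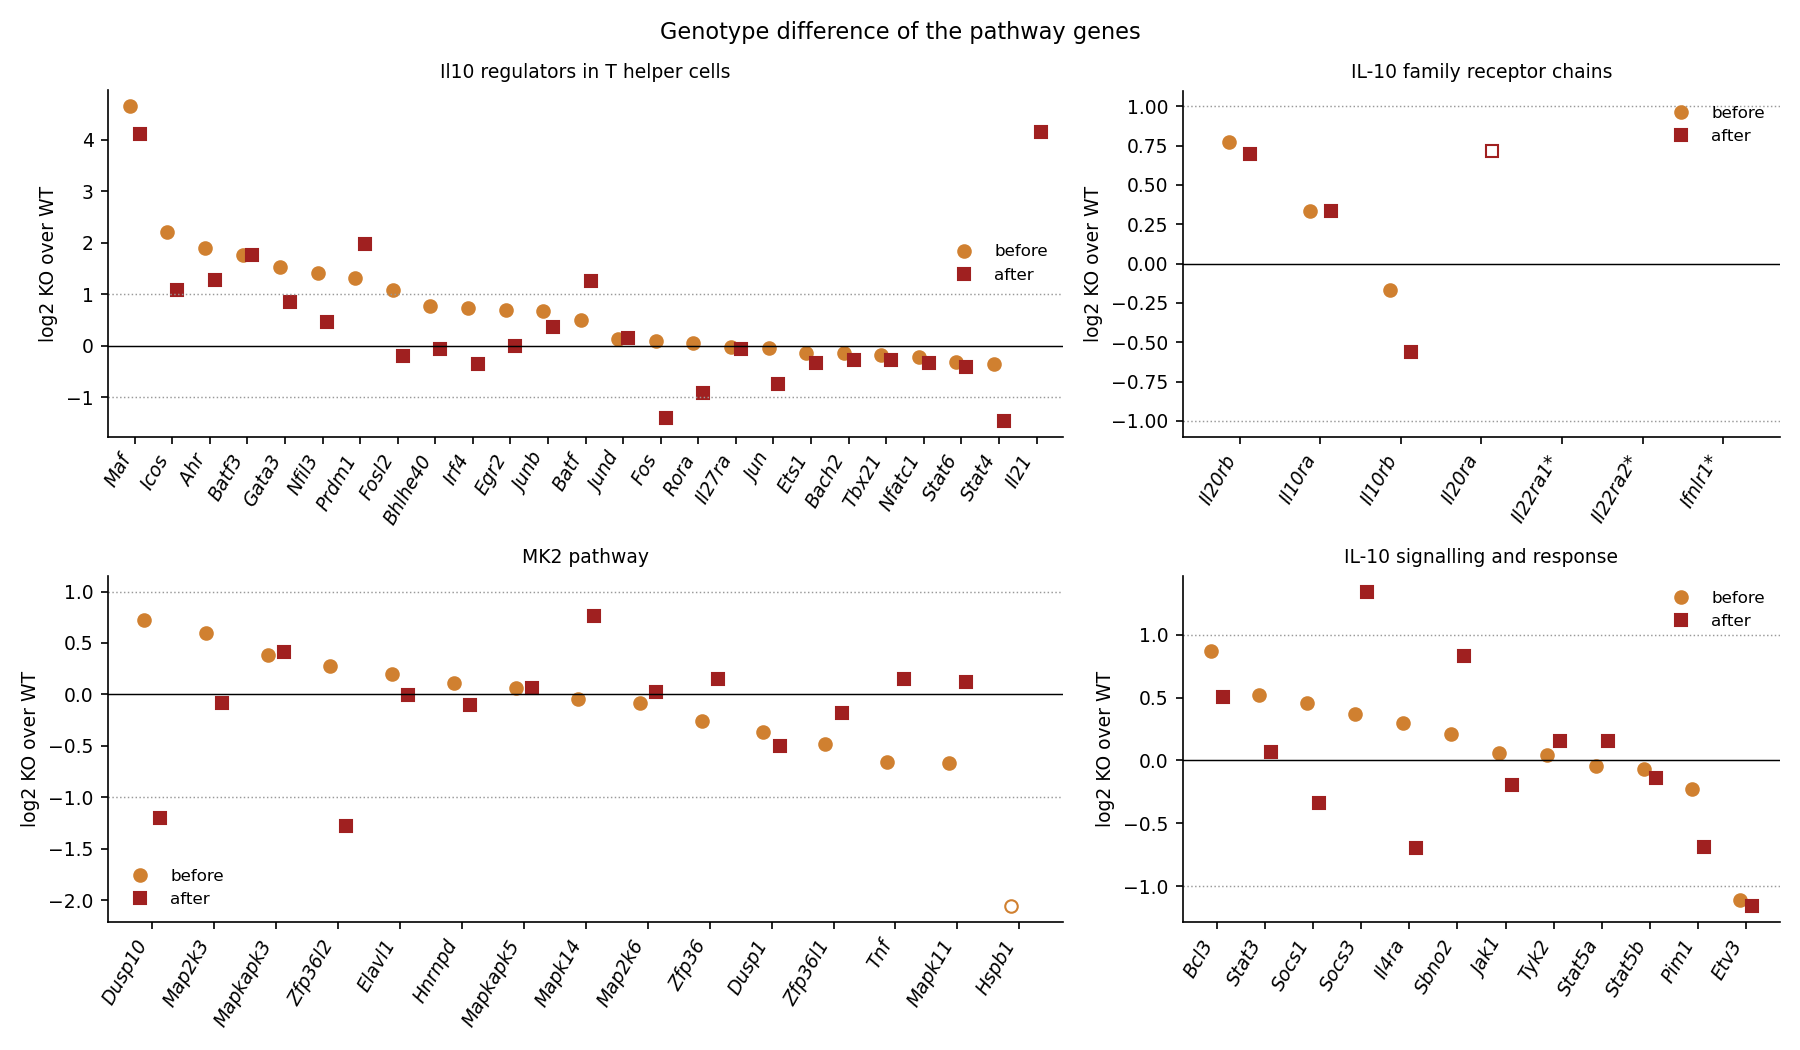
Log2 difference of Bach2 KO over WT before (circles) and after (squares) re-stimulation for 4 gene lists: regulators of Il10 in Th cells, receptor chains, genes around MK2, and IL-10 signalling; open points are bounds, dotted lines mark 2-fold and genes with an asterisk were not measured. Maf stands at 4.65 and 4.10 and Il21 at 4.15, whereas all receptor chains measured lie between -0.56 and 0.77.

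Around MK2 a list of 15 genes covered the p38 kinases above it, its sister kinases and the RNA-binding proteins it acts on. Before re-stimulation 0 were at least 2-fold higher in Bach2 KO and 1 was lower, namely Hspb1, the small heat shock protein that MK2 phosphorylates, which read 70.3 in WT before and was not well above background on the other arrays (at least 4.17-fold lower). After re-stimulation 0 of 14 were higher and 2 were lower, Zfp36l2 (-1.28), an RNA decay factor, and Dusp10 (-1.20), a phosphatase of p38 and JNK. Over all genes 5.26% were higher and 2.82% lower before, and 5.17% higher and 3.85% lower after. The list medians were -0.045 and 0.007, close to those of all genes.

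Mapk14, the p38α kinase that activates MK2, read 3575, 3450, 1214 and 2330 in the order WT before, Bach2 KO before, WT after and Bach2 KO after, a genotype difference of -0.045 and 0.77. Zfp36, the tristetraprolin that MK2 phosphorylates, read 661, 551, 439 and 551, or -0.26 and 0.15. Tnf, a cytokine whose message MK2 stabilises, differed by -0.66 and 0.15 between the genotypes and rose on re-stimulation in both, 10.5-fold in WT and 18.5-fold in Bach2 KO. Mapk11, the p38β kinase, differed by -0.67 and 0.12, Dusp10 by 0.73 before, and Dusp1, another MAP kinase phosphatase, by -0.50 after. None of the 14 list genes measured passed the 2-fold rule upward in the re-stimulated pair, where 5.17% of all genes did. So few genes at such a share say nothing particular about the list. Mapkapk2 passed the rule at 1.10 in log2, and its difference from the list genes was not tested.

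Likeness of pattern was measured as the root mean square distance between the log2 values of a pair of genes over the 4 arrays, each gene centred on its own mean and signals not well above background raised to the lowest signal that was. Smaller values are closer. Among the 10925 genes detected wherever Il10 was, the nearest was Il24, at 0.47. Csta1 (0.97), Ffar2 (1.05), Il5 (1.07) and Csta2 (1.10) came next. Il5, the eosinophil growth factor of Th2 cells, read 4.81, 329, 16.8 and 2200 in the usual order, at least 4.45 higher in log2 in Bach2 KO before and 6.86 higher after re-stimulation.

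The genes nearest to Il24, of 10809 detected on all arrays, were Csta1 (0.75), Ffar2 (0.80), Csta2 (0.85), Maf (1.02) and Cstdc5 (1.11). Il10 was not a candidate there, since it was not detected on every array. Csta1, Csta2 and Cstdc5 encode closely related cysteine protease inhibitors of the stefin A type, whose probes may share signal. Ffar2, a receptor for short-chain fatty acids, read 24.2 in WT before, 324 in Bach2 KO before, 65.9 in WT after and 1460 in Bach2 KO after, again the order of Il10.

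Il19 lay far from the rest of its cluster, at rank 9948 of 10809 from Il24. Its nearest genes were Iqcf5 (0.11), Ap1m2 (0.13), Wscd2 (0.14), Adprhl1 (0.15) and Igf2bp2 (0.16). Wscd2 read 2512, 1299, 581 and 693 in the usual order, brighter than Il19. It was picked for its likeness to Il19, so its pattern is no check on that of Il19. Its genotype difference before re-stimulation was -0.95 in log2, under 2-fold. Mapkapk2 was nearest to Ext1 (0.041), a heparan sulfate polymerase, then Fgr (0.094), a Src family kinase, Gm3696 (0.12), Ppif (0.14) and Rnf149 (0.15). Ext1 read 86.5 and 89.9 before and 200 and 480 after re-stimulation in WT and Bach2 KO. With 4 arrays, many genes are near each other by this measure, and nothing about shared control is read from it.

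**Figure D5:**
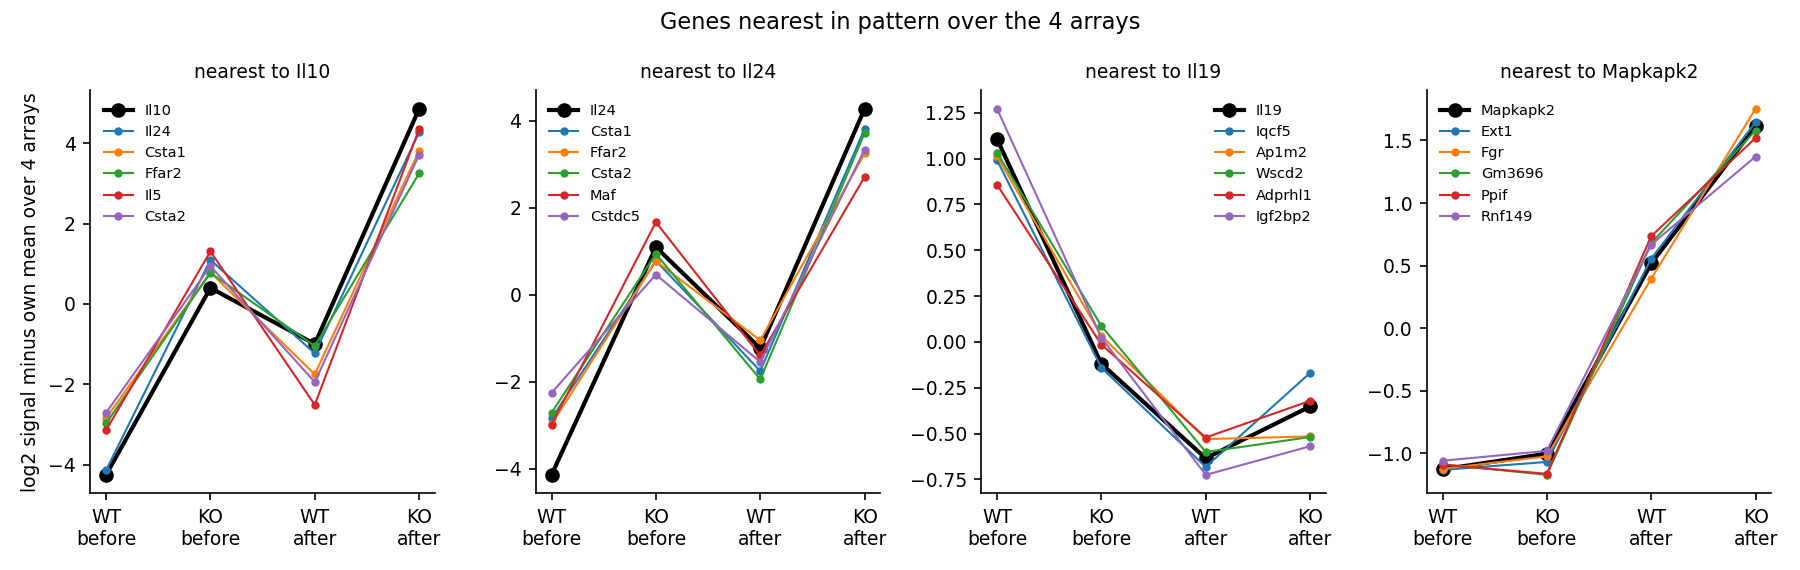
Log2 signal over the 75th percentile, minus each gene's mean over the 4 arrays, for Il10, Il24, Il19 and Mapkapk2 (black) and their 5 nearest genes (colours). Il24 follows Il10 most closely, Il19 and its nearest genes are highest in WT before, and Mapkapk2 and its nearest genes are highest in Bach2 KO after.

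Markers of other cells that can make Il10 also differed between the genotypes. Of 10 mast cell and basophil markers, 3 were well above background in WT before, 7 in Bach2 KO before, 2 in WT after and 7 in Bach2 KO after, with summed signals of 243, 1344, 484 and 1977. Before re-stimulation Cpa3, the mast cell carboxypeptidase, was at least 22.5-fold higher in Bach2 KO, and the basophil protease Mcpt8 at least 20.5-fold. Prss34, another basophil protease, was 8.96-fold higher, with the signals of both arrays well above background. Fcer1a, a chain of the IgE receptor, was at least 4.94-fold higher. After re-stimulation these 4 were at least 11.9-fold, 20.3-fold, 13.8-fold and 4.68-fold higher. The other markers measured differed less before re-stimulation on their brighter probes. Hdc was 0.86 and 1.53 higher in log2 before and after, and Gata2 at least 0.78 and 0.77 higher. Cd200r3 was 0.41 and 0.34 higher, while its other probe gave lower bounds of 2.34 and 1.53. The bounds of Cpa3, Mcpt8 and Il10 (25.1-fold) before re-stimulation rest on the same lowest WT signal, so the differences themselves cannot be compared. On re-stimulation of Bach2 KO cells Il10 was 4.46 higher in log2. Cpa3 differed by -0.50 and Mcpt8 by 0.41, while Hdc was 2.18 higher. Cd200r3 was 2.38 higher on its brighter probe and differed by -0.39 on the other. Of the 7 mast cell and basophil markers measured there, these last 2 were at least 2-fold higher, beside 12.4% of all genes. Ms4a2, Mcpt4 and Tpsb2 were below the detection level on all arrays. Of 8 myeloid markers 3, 4, 1 and 3 were detected, with summed signals of 244, 688, 104 and 375, and Itgam, Lyz2 and S100a8 were not well above background anywhere. S100a9, a granulocyte protein, was at least 9.94-fold higher in Bach2 KO before and 6.95-fold after re-stimulation. Itgax was at least 4.37-fold and 3.40-fold higher, and the macrophage marker Adgre1 was 2.23-fold and 2.95-fold higher on its brighter probe. The other Adgre1 probe, detected in Bach2 KO before only, gave a lower bound of 2.06 in log2 before and no value after. Cd14 was 0.59 higher in log2 before and not detected after, and Csf1r gave no fold on its brightest probe. Of 6 B cell markers 3, 2, 2 and 3 were detected, with summed signals of 590, 614, 168 and 229, and Cd79a, Ms4a1 and Pax5 were below that level on all arrays. The part of such cells in the Il10 and Il24 differences was not tested.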

How the data were processed

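RNA of 4 Th cell samples, 1 for each condition, was hybridised to one-colour (Cy3) Agilent arrays. The authors deposited Feature Extraction scanner files (version 10.7.3.1 per the file headers), whose processed signal is an intensity after background subtraction, and a table of log2 values. Depth does not apply to arrays, whose number limits the precision. Of the 41173 probes, 27479 (66.7%) were named by matching their transcript to RefSeq. Flagged outlier spots (107 to 120 per array) were left out, spots of 1 probe were averaged as log2, and each array was divided by its 75th percentile signal. The authors' deposited log2 values were within 0.01 of these for 41001 to 41026 probes per array. A gene was represented by its brightest probe. A gene was measured in a pair if detected on at least 1 array, and a value not well above background was raised to the lowest signal that was, which gives a bound. Genes at least 2-fold apart were counted as changed. With 1 array per condition no test was run.

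The members and all gene lists were chosen with earlier results of these data known. A listed gene is not reported here and was left out of its list. Besides the members, the text names the 4 genes of each list with the largest genotype difference in each pair, fixed genes of the pathway, and the 5 nearest in pattern. The 9 alternatives changed the scaling (median, probes detected on all arrays, quantile), the background correction (normexp, limma version 3.58.1, offset 50, on the median signals), the source (the authors' table), the probe rule (mean over probes), the filter (none, or both arrays detected) and the fold (3-fold). Calculations used Python 3.11.15, numpy 2.4.6, pandas 2.3.3 and R 4.3.3, and were tested on simulated data.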

Additional observations from a re-analysis of the deposited data

Results flagged for a closer look

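With 1 array per condition, a member or listed gene was picked out here when its difference pointed opposite ways in the paired settings. Each value had to lie beyond the median spread between probes, and at least 1 of them had to reach 2-fold. None of these contrasts between settings was tested. Il19 was -1.23 in log2 in Bach2 KO before re-stimulation and 0.28 after it. The value after was about as large as its software error (0.27) and was 0.039 with normexp, so a reversal is not shown. Fosl2, an AP-1 subunit, was 1.08 before and -0.20 after. Zfp36l2 was 0.28 before and -1.28 after, with re-stimulation differences of 0.33 in WT and -1.22 in Bach2 KO. Dusp10 was 0.73 before and -1.20 after. Ctla4, a marker gene given further below, also met the rule, at -1.38 before and 0.51 after.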

How the results depend on the processing

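No paired analysis was possible because each group holds 1 array. The 4 members measured gave 126 values over the alternatives, of which 99 moved by no more than the median SD between probes in that comparison (0.088 to 0.15), 27 moved by more and 0 turned their direction. Il10 in the genotype comparison before re-stimulation and in re-stimulated WT gave no value when both arrays had to be well above background. Values that moved are given as log2 differences, and their cause was not tested except where the construction of the alternative shows it.

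With each array scaled to its median, re-stimulation differences fell, since that scaling shifts all genes by -0.30 in WT and -0.27 in Bach2 KO. Il10 became 2.96 in WT and 4.19 in Bach2 KO, Il24 2.61 and 2.91, Il19 -2.04 and -0.50, and Mapkapk2 1.35 and 2.35. The share of calls that were higher was then 29.1% in WT and 30.8% in Bach2 KO, against 49.3 and 48.9% in the main setting, and genes lower in WT numbered 2664 against 1673. With no filter these shares were 59.5 and 59.7%. With quantile normalization Il10 was 4.41 before re-stimulation and 2.98 in re-stimulated WT, and Il24 was 5.13 before.

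With normexp and quantile normalization Il10 was 2.32 before and 5.17 after in the genotype comparison, 1.23 in re-stimulated WT and 4.08 in re-stimulated Bach2 KO. Il24 was 4.05 before, 5.20 after, 1.89 in WT and 3.03 in Bach2 KO. Il19 was -0.73 before, 0.039 after and -0.98 in WT, and Mapkapk2 was 2.47 in Bach2 KO. The offset of 50 shrinks differences that involve dim signals by construction. Without filter or floor Il10 was 5.25 before and 3.86 in re-stimulated WT, by construction, since the bound was dropped. With the mean over probes Il24 was 5.47 before and 3.11 in re-stimulated WT.

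Genes higher in Bach2 KO numbered 638 before and 638 after re-stimulation. With normexp they were 263 and 310, with no filter 1212 and 1437, with the 3-fold rule 301 and 275, and 425 before with both arrays detected. Genes lower numbered 342 and 476. With normexp they were 113 and 240, with no filter 686 and 1024, with the 3-fold rule 127 and 170, and 221 before with both arrays detected. Genes higher on re-stimulation numbered 1630 in WT and 1534 in Bach2 KO. With normexp they were 848 and 820, with no filter 2951 and 2890, and with the 3-fold rule 797 and 723. With the 3-fold rule 557 and 558 were lower, against 1673 and 1606.

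Of 160 list medians 6 turned their direction from a main value larger than the median SD between probes. Smaller medians also crossed 0: the signalling list after re-stimulation went from -0.037 to 0.10 with the mean over probes, and the MK2 list after it from 0.007 to -0.021 with median scaling, -0.028 with normexp and -0.006 with no filter. With no filter the receptor chains were 0.099 in re-stimulated WT and 0.78 in re-stimulated Bach2 KO, and the chromosome 1 neighbours 0.071 before. With median scaling the signalling list was -0.066 in re-stimulated WT and -0.017 in re-stimulated Bach2 KO, and the MK2 list -0.022 in re-stimulated Bach2 KO. Signals within a few units of the background, such as Il10 in resting WT cells and Il20, limit what these arrays resolve.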

Other observations

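Markers of T cell subsets that make IL-10 were also read. Foxp3, the factor of regulatory T cells, read 50.8 in WT before and 19.5 in WT after re-stimulation and was not well above background in Bach2 KO before or after, at 4.12 and 4.37. Before re-stimulation it was at least 3.01-fold lower in Bach2 KO, and after it at least 1.27-fold lower. Ctla4, an inhibitory receptor, was also lower before re-stimulation, by -1.38 in log2, and stood at 0.51 after it. Nrp1 differed by -0.21 and 0.50 on its brighter probe and by -1.61 (a bound, the Bach2 KO signal being not well above background) and 0.38 on the other. Il2ra, the IL-2 receptor α chain, differed by 0.28 and 0.73, and Ikzf2 by 0.41 and -0.49.

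Of the markers linked to type 1 regulatory cells, Lag3 read 85.6 in WT before, 255 in Bach2 KO before, 473 in WT after and 1734 in Bach2 KO after, or 1.58 and 1.70 higher in log2 in Bach2 KO. Havcr2, which encodes the inhibitory receptor Tim-3, read 152, 1290, 5230 and 21961 in the same order, 8.55-fold and 3.72-fold higher in Bach2 KO. Unlike Il10, both read more in re-stimulated WT cells than in resting Bach2 KO cells. Itga2 was detected in WT before only, at 21.7. Cd8a was detected in Bach2 KO after only, at 63.0 on its brightest probe, and its other probes were not detected on any array. Of 4 NK cell markers 1, 2, 1 and 2 were detected, with summed signals of 359, 458, 173 and 198.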
